A study of Mus musculus with 8 samples.

Results

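The genes described here are 10 mouse genes of antigen presentation by major histocompatibility complex (MHC) class I, out of 38924 gene rows measured in early embryos. They were B2m, H2-K1, H2-D1, H2-T23, Tap1, Tap2, Tapbp, Psmb8, Psmb9 and Nlrc5, found by gene symbol, and a symbol listed more than once was taken as its row of highest mean. The set was selected on 1 measured value, the level of B2m in diapaused inner cell mass relative to inner cell mass, so the comparison of diapaused inner cell mass with inner cell mass is given for the members as a description, without a test.

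RNA sequencing covered 8 libraries of C57BL/6 embryos in 3 groups, each library a pool of about 50 embryos. The 3 diapaused inner cell mass (diapaused ICM) libraries came from blastocysts held in embryonic diapause, a reversible arrest of the embryo before implantation, which was brought about by giving the mother tamoxifen and 0.5 mg of the progestin Depo Provera on day 3.5. Those embryos were flushed out 5 days later. The 2 epiblast libraries came from embryos after implantation, on day 6.5, and the 3 inner cell mass (ICM) libraries from blastocysts on day 3.5. The trophectoderm, the outer layer of the blastocyst, had been lysed with antibody and complement (immunosurgery) before RNA was taken from the inner cells, and small amounts of RNA were amplified before library preparation. The labels give the sex of all 8 libraries as female. Arrest, embryo age and hormone treatment go together in the diapaused ICM group and cannot be told apart.

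MHC class I molecules show peptides from inside the cell to cytotoxic T cells and natural killer cells. Each is made of a polymorphic heavy chain and the invariant light chain beta-2-microglobulin, and without the light chain most heavy chains do not reach the cell surface. The peptides are cut by the proteasome, pumped into the endoplasmic reticulum by the TAP transporter and loaded with the help of tapasin. Interferons and the coactivator NLRC5 raise transcription of most of these genes in adult tissues, whereas early mouse embryos and embryonic stem cells are known for low surface class I.

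The values are the adjusted TPM deposited by the authors, where TPM is a transcript abundance corrected for transcript length and library size. They do not sum to the same total, running between 720674 and 1179026 per library, and the read depth behind them is not known, so no counting error can be given. Between 14634 and 15130 genes reached a value of 1 in a library, and libraries of the same group correlated more closely with each other (Pearson r of 0.944 to 0.968 across genes, which are not independent replicates) than libraries of different groups (0.818 to 0.919). Genes were tested with limma on log2(value + 1) where 2 or more libraries reached 1, a filter on low values that 17698 genes passed, and a difference passed the test at an adjusted p under 0.05. Of the 10 members, 7 passed the filter, and Tap2, Psmb8 and Nlrc5 did not. Markers of the primed and naive states separated epiblast from the blastocyst groups. The defining primed markers Fgf5 and Otx2 were at or under 0.442 in diapaused ICM and reached 145 in epiblast, against at most 2.42 in ICM. All 11 genes listed for naive pluripotency and ICM, Pou5f1 among them, fell in epiblast relative to ICM. Under other settings of the analysis Nanog lost its call in 6 of 17, Pou5f1 in 2 of 17 and Klf2 in 1 of 16. In bulk samples of this kind, fewer cells of a type and less RNA per cell cannot be told apart.

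Class I genes are known for shared elements close to their start sites, so the 250 bases before the annotated start site are shown for the light chain, both classical heavy chains and Tap1. They are RefSeq windows on assembly GRCm38.p6, not the build of the deposited values, whose coordinates are not used here. A window was given for 8 of the 10 members. H2-K1 had 2, and the first listed is used, so its positions depend on that start site. Capitals mark matches, on either strand, to 4 short motifs whose letters were chosen with these promoters in view. They are AANNGAAA, the core of an interferon response element, GGGANNNNCC, a form of the NF-kB site, TGACG, the core of the CREB site that is called X2 in class I promoters, and CCAAT, the NF-Y site. A match on the other strand is printed as its reverse complement, so CCAAT can appear as ATTGG and an interferon response core as a run of T followed by C. In H2-K1, H2-D1 and B2m the matches to the NF-kB form on each strand overlap and are printed as 1 block.
B2m, chr2:122147437-122147686, plus strand: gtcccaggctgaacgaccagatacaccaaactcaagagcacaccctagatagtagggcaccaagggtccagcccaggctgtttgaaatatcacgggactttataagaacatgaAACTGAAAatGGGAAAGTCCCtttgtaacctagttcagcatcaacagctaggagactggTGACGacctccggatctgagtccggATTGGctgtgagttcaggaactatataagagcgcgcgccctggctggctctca
H2-K1, chr17:34000348-34000597, minus strand: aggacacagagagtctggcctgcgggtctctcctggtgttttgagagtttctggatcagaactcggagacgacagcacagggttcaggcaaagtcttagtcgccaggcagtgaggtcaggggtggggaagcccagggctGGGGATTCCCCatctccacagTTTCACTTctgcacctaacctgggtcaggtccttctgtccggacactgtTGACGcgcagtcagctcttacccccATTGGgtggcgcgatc
H2-D1, chr17:35262844-35263093, plus strand: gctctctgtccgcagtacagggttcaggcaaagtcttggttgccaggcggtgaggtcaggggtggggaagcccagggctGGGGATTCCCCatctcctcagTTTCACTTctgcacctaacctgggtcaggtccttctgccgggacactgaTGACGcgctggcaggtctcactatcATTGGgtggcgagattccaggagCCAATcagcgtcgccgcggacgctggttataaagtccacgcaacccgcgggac
Tap1, chr17:34187306-34187555, plus strand: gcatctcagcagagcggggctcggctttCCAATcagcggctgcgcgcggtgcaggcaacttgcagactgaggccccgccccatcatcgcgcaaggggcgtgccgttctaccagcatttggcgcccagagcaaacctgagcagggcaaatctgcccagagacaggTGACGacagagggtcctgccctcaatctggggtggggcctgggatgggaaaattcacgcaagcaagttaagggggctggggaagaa

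Over the full windows of 300 bases, which run 50 bases past the start site, B2m, H2-K1 and H2-D1 held all 4 motifs. Of 32851 windows in the table, 23.9% held the interferon response core, 20.7% the NF-kB form, 20.8% the X2 core and 37.4% CCAAT, and 0.286% held all 4. H2-T23, Tap1 and Psmb9 held 2 of the 4 motifs, Tapbp held 1 and Psmb8 none. H2-T23 had 2 interferon response cores and 1 CCAAT box. Tap1 and Psmb9 are transcribed away from each other, and their windows share 275 bases, so their X2 core and CCAAT box are the same letters read from opposite sides. In B2m the interferon response core lay at positions -137 to -130 from the start site, with the NF-kB block beginning at -127. In H2-D1 the order was reversed, with the NF-kB block beginning at -171 and the interferon response core at -150. H2-K1 had the same arrangement at -111 and -90 in the window used. The light chain and both classical heavy chains therefore carried the same 4 motifs near their start sites, and their levels are given next.

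**Figure D1:**
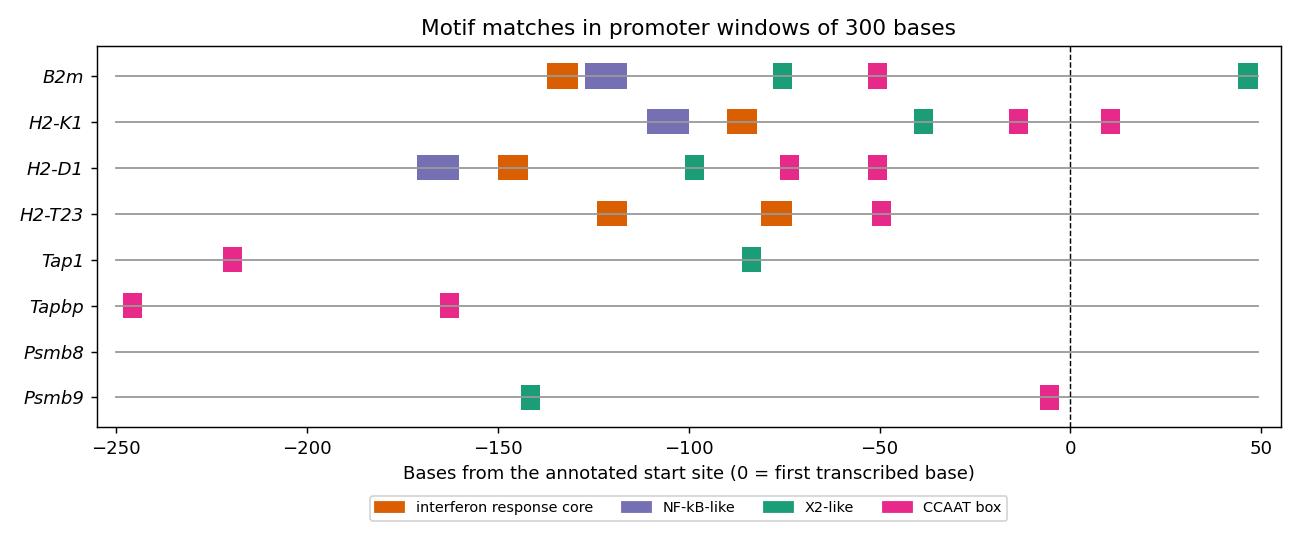
Motif matches in the RefSeq promoter windows of 8 members, 300 bases each. The x axis is the distance in bases from the annotated start site (dashed line), each row is a gene, and coloured blocks are matches on either strand. B2m, H2-K1 and H2-D1 hold all 4 motifs, and Psmb8 holds none.

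B2m, which encodes the light chain, was at 57.2, 93.6 and 56.2 adjusted TPM in the diapaused ICM libraries, at 7.35 and 11.4 in the epiblast libraries and at 1.08, 1.15 and 1.60 in the ICM libraries. The 3 groups were fully separated, and the lowest diapaused ICM library stood above the highest epiblast library. The means were 69.0 ± 21.3 in diapaused ICM (SD, n = 3), 9.40 ± 2.89 in epiblast (SD, n = 2) and 1.28 ± 0.280 in ICM (SD, n = 3). In rank, B2m lay at the 95.3rd to 96.7th percentile of all gene rows in diapaused ICM and at the 84.8th to 88.3rd in epiblast, against the 62.9th to 67.0th in ICM. The ratio of means was 54.0 for diapaused ICM over ICM, and on the log2(value + 1) scale, which draws low values together, the difference was 4.91 ± 0.27 (standard error), or 30.0-fold. It is these values that chose the gene set.

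In epiblast, B2m was 2.17 ± 0.30 higher than in ICM on the same log2 scale, and under 17 other settings of the analysis the difference ran between 1.88 and 2.77. Diapaused ICM was 2.74 ± 0.30 above epiblast. Neither value is tested, because the ICM and the diapaused ICM levels of B2m are the ones that the choice was made on.

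**Figure D2:**
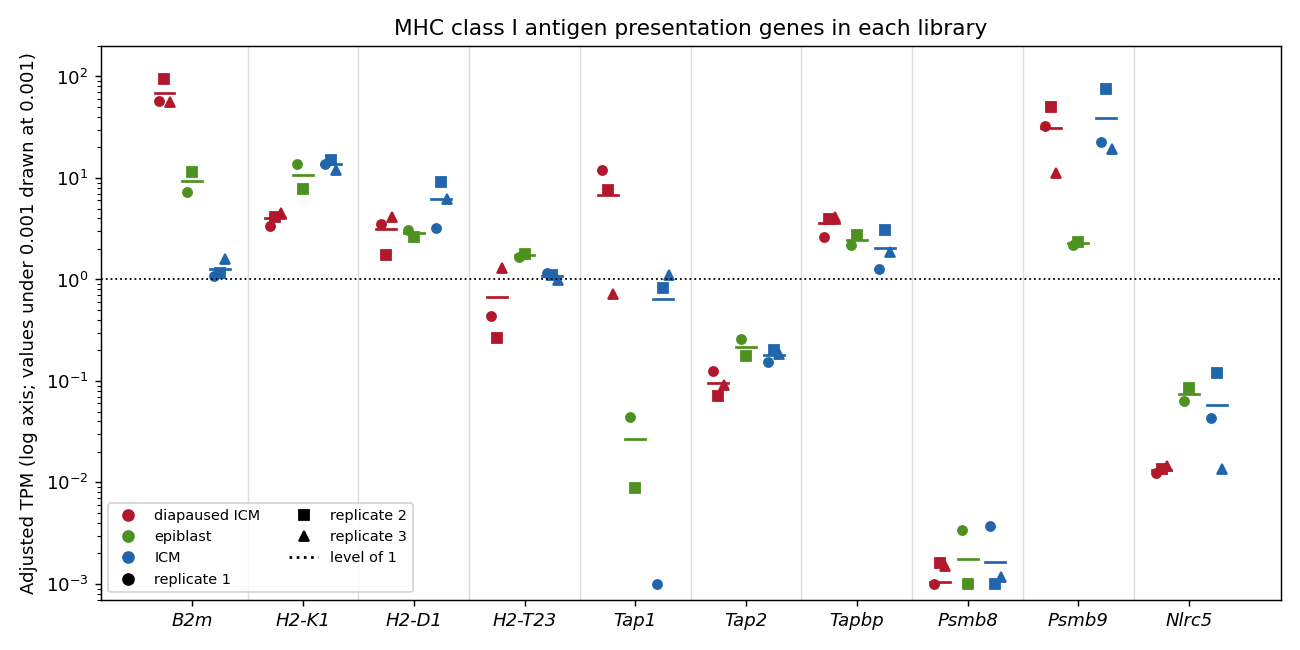
Adjusted TPM (log axis) of the 10 genes in each of the 8 libraries, with values under 0.001 drawn at 0.001. Points are libraries, their shape is the replicate number, short lines are group means and the dotted line is a level of 1. B2m is high in the 3 diapaused ICM libraries, H2-K1 is low in them, and Tap2, Psmb8 and Nlrc5 stay under 1 in all 8.

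The classical heavy chains did not share the pattern of the light chain. H2-K1, the heavy chain of the H-2K molecule, was at 3.34, 4.14 and 4.51 adjusted TPM in diapaused ICM, at 13.8 and 7.81 in epiblast and at 13.9, 14.9 and 12.0 in ICM. The diapaused ICM libraries were the lowest of all 8. Their mean was 3.40 times under the ICM mean of 13.6, and the log2 difference of diapaused ICM from ICM was -1.55 ± 0.24, given as a description. H2-K1 fell in diapaused ICM relative to epiblast by 1.20 ± 0.27 on the log2 scale (limma, adjusted p = 0.00999). That call was lost without the first epiblast library, the higher of the 2, where the difference was -0.825 with an adjusted p of 0.0984. Epiblast and ICM overlapped for H2-K1, with a difference of -0.35 ± 0.27 that did not pass (adjusted p = 0.357).

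H2-D1, the heavy chain of the H-2D molecule, was at 3.49, 1.75 and 4.13 adjusted TPM in diapaused ICM, at 3.11 and 2.62 in epiblast and at 3.22, 9.05 and 6.15 in ICM. Diapaused ICM overlapped both other groups. Its log2 difference from ICM was -0.75 ± 0.35, and its difference from epiblast was 0.05 ± 0.39 (adjusted p = 0.936), with a sign that turned under 5 of the 17 settings. Epiblast lay 0.80 ± 0.39 under ICM on the log2 scale, which did not pass (adjusted p = 0.154).

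H2-T23 encodes Qa-1, the nonclassical class I molecule that natural killer cells read through the NKG2A receptor. It was at 0.435, 0.265 and 1.30 adjusted TPM in diapaused ICM, at 1.68 and 1.80 in epiblast and at 1.16, 1.10 and 0.991 in ICM. The epiblast libraries were the highest of the 8, by a small margin. Neither tested difference passed, at 0.40 ± 0.30 for epiblast over ICM (adjusted p = 0.358) and -0.77 ± 0.30 for diapaused ICM over epiblast (adjusted p = 0.0805). Without the third diapaused ICM library, which was at 1.30, H2-T23 passed as lower in diapaused ICM than in epiblast (-1.02, adjusted p = 0.0249).

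Reads of these heavy chains may be shared among them. Of the 36-base words in their transcripts, 18.8% for H2-K1, 21.7% for H2-D1 and 21.1% for H2-T23 also occur in transcripts of other genes, and 9.67% of the words of H2-K1 occur in H2-D1. No source used here says how reads that fit several genes were counted, so the split between heavy chains is uncertain. B2m has no such shared word. The 36-base length was chosen for this count, since the read length is not known.

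The summed heavy chains do not depend on how reads were split within the set, though reads that were discarded or given to genes outside it would still be missed. The 18 class I heavy chain genes in the file summed to 15.4 to 23.9 adjusted TPM in diapaused ICM and 21.1 to 28.2 in epiblast, against 27.2 to 40.2 in ICM. H2-K1 and H2-D1 made up 33.8% to 44.4% of that sum in diapaused ICM and 49.3% to 59.8% in epiblast, against 58.0% to 62.9% in ICM. The 15 heavy chain genes outside the members, of 19 looked for, held 7 that passed the filter on low values, and none of the 7 passed the test between diapaused ICM and ICM. The most abundant of them were H2-Q10, at 2.69 ± 0.962 in diapaused ICM and 2.29 ± 0.0408 in epiblast, against 2.96 ± 1.01 in ICM, and H2-Bl, at 1.93 ± 0.733 in diapaused ICM and 2.36 ± 0.632 in epiblast, against 2.39 ± 0.730 in ICM. H2-M5 alone passed in the other comparisons. It was at 0.0815 and 0.0405 adjusted TPM in epiblast, under the 0.904 to 1.42 of ICM, and fell by 1.04 ± 0.31 on the log2 scale in epiblast relative to ICM (adjusted p = 0.0354), a call near the threshold that was lost under 6 of 16 settings, with an adjusted p of 0.155 without the second epiblast library and 0.151 without the first. The 5 class I-like genes whose products also bind the light chain, Cd1d1, Cd1d2, Mr1, Fcgrt and Hfe, were at or under 0.421 in all 8 libraries.

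The light chain and the classical heavy chains changed places between groups. The ratio of B2m to the sum of H2-K1 and H2-D1 was 8.37, 15.9 and 6.50 in the diapaused ICM libraries, 0.436 and 1.10 in the epiblast libraries, and 0.0634, 0.0481 and 0.0880 in the ICM libraries. Within 1 library, the light chain was in excess of these heavy chains in each diapaused ICM library, near their level in epiblast, and far under it in each ICM library. The mean ratio was 10.2 ± 4.96 in diapaused ICM (SD, n = 3) and 0.766 ± 0.468 in epiblast (SD, n = 2), against 0.0665 ± 0.0201 in ICM (SD, n = 3). A ratio within a library does not depend on how that library was scaled. This one includes the value that chose the genes and is not tested.

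**Figure D3:**
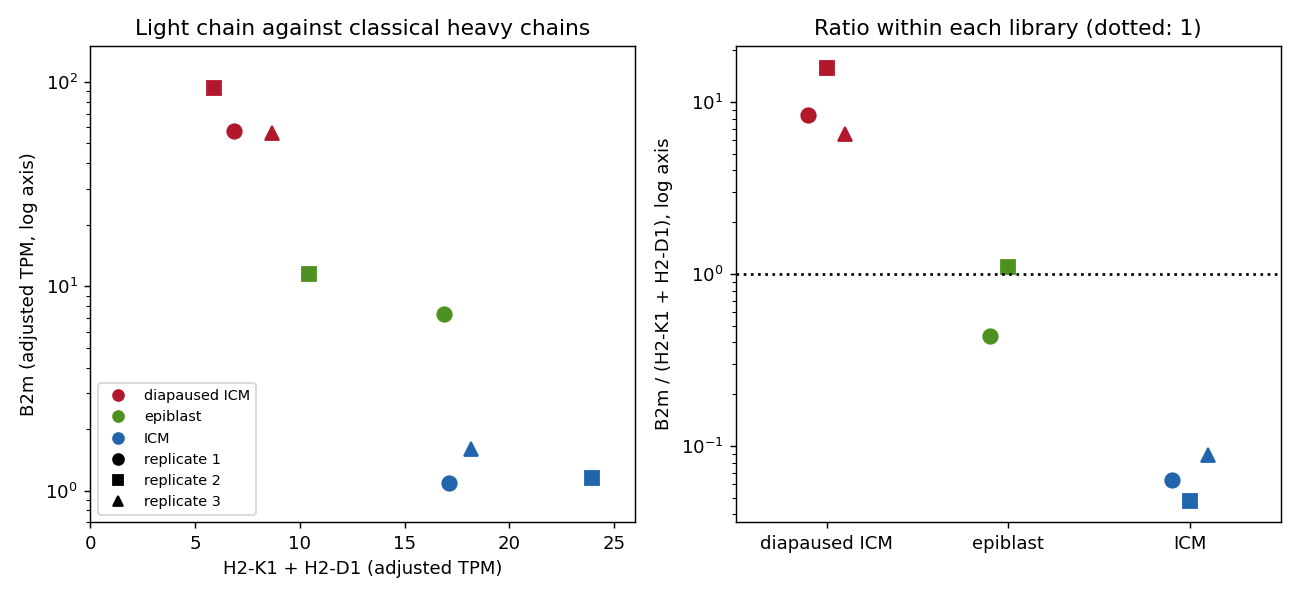
Left, B2m (adjusted TPM, log axis) against the sum of H2-K1 and H2-D1 (adjusted TPM) in each library. Right, the ratio of the 2 quantities in each library (log axis), with a dotted line at 1. The 3 diapaused ICM libraries lie between 6.50 and 15.9, the epiblast libraries at 0.436 and 1.10, and the ICM libraries under 0.1.

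Tap1 encodes 1 of the 2 subunits of the peptide transporter, and was uneven between replicates, at 11.9, 7.68 and 0.722 adjusted TPM in diapaused ICM, 0.0444 and 0.00891 in epiblast and 0.000819, 0.825 and 1.10 in ICM. Both epiblast libraries were under 0.05, and the third diapaused ICM library lay among the ICM libraries. The difference of diapaused ICM from ICM was 1.88 ± 0.66 on the log2 scale, a description. Diapaused ICM lay 2.49 ± 0.74 above epiblast, and under 17 other settings this difference ran between 1.91 and 5.08. Tap1 reached 1 in the first and second diapaused ICM libraries and in the third ICM library. Without diapaused ICM it would not have passed the filter, so its test against epiblast is not given. Epiblast did not pass against ICM for Tap1 (-0.61 ± 0.74, adjusted p = 0.566).

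Tap2, the partner subunit without which the transporter does not work, was at 0.0704 to 0.125 adjusted TPM in diapaused ICM and 0.175 to 0.258 in epiblast, against 0.154 to 0.204 in ICM, and did not pass the filter. Where Tap1 reached its highest level, 11.9 in the first diapaused ICM library, Tap2 was at 0.125. Tapbp, which encodes tapasin, the bridge between the transporter and the empty heavy chain, was at 2.62, 3.97 and 4.10 in diapaused ICM, at 2.17 and 2.74 in epiblast and at 1.27, 3.05 and 1.87 in ICM. The groups overlapped. Its log2 differences were 0.60 ± 0.26 for diapaused ICM over ICM, 0.21 ± 0.30 for epiblast over ICM (adjusted p = 0.623) and 0.39 ± 0.30 for diapaused ICM over epiblast (adjusted p = 0.328). For Tapbp, 24.8% of its 36-base words lie on the opposite strand of another gene's transcript, and for Tap2 13.5%. No source used here says whether the counting used strand, and reads from such overlapping genes cannot be told apart without it.

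The other 9 genes of peptide loading and trimming held 8 that passed the filter. None of the 8 passed between diapaused ICM and ICM, 1 rose and 2 fell in epiblast relative to ICM, and, set against epiblast, diapaused ICM had 2 higher and 2 lower. Pdia3, the thiol oxidoreductase of the loading complex, rose in epiblast relative to ICM by 1.68 ± 0.40 on the log2 scale (adjusted p = 0.0147), with a mean of 101 ± 38.4 adjusted TPM in epiblast and 30.8 ± 9.32 in ICM. The chaperone gene Calr fell in epiblast, with a mean of 108 ± 37.7 against 240.0 ± 45.7 in ICM (-1.17 ± 0.33, adjusted p = 0.0278). Pdia3 lost its call without the first epiblast library (adjusted p = 0.132), and Calr without the second (0.202) or without the first ICM library (0.075) or the third (0.0751). Tapbpl, which encodes the tapasin-related peptide editor, was lower in diapaused ICM than in epiblast, with a mean of 1.25 ± 0.184 against 6.82 ± 2.41 in epiblast (-1.76 ± 0.35, adjusted p = 0.00593, and 0.0573 without the second epiblast library). Uggt1, which encodes the glucosyltransferase that checks the folding of glycoproteins, made up the other fall in epiblast (-1.07 ± 0.24 from ICM, adjusted p = 0.0114, and 0.106 without the first epiblast library). Uggt1 and the aminopeptidase gene Lnpep were the higher pair in diapaused ICM over epiblast, at 0.92 ± 0.24 (adjusted p = 0.0184, and 0.139 without the first epiblast library) and 1.08 ± 0.31 (adjusted p = 0.0256, and 0.154 without the second). Pdia3 joined Tapbpl as lower there (-1.85 ± 0.40, adjusted p = 0.00851, and 0.084 without the first epiblast library). Erap1, the aminopeptidase that trims peptides for class I in the endoplasmic reticulum, did not pass the filter and was at or under 0.770 in all 8 libraries.

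The inducible catalytic subunits of the proteasome differed from each other. Psmb9, which replaces the constitutive subunit encoded by Psmb6 in the immunoproteasome, was at 32.7, 50.1 and 11.1 adjusted TPM in diapaused ICM, at 2.19 and 2.36 in epiblast and at 22.4, 76.0 and 19.4 in ICM. Diapaused ICM and ICM overlapped, and both epiblast libraries lay under all the others. The difference of diapaused ICM from ICM was -0.27 ± 0.60, and it turned positive without the second ICM library (0.331) or the third diapaused ICM library (0.318). Psmb9 fell in epiblast relative to ICM by 3.35 ± 0.68 on the log2 scale (adjusted p = 0.00701), and was 3.07 ± 0.68 higher in diapaused ICM than in epiblast (adjusted p = 0.00892). With no filter the adjusted p values were 0.0505 and 0.0585, and without the first epiblast library they were 0.0550 and 0.0579, so that both calls were lost there by a small margin. Psmb8, which encodes the inducible partner of Psmb5 and neighbours the TAP genes, did not pass the filter and was at or under 0.00375 in all 8 libraries.

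Set against its constitutive counterpart within each library, Psmb9 stood at 0.588, 1.01 and 0.208 of Psmb6 in diapaused ICM and at 0.0225 and 0.0217 in epiblast, against 0.176, 0.574 and 0.116 in ICM. Psmb6 itself was at 55.6, 49.4 and 53.4 adjusted TPM in diapaused ICM and at 97.2 and 109 in epiblast, against 127, 132 and 167 in ICM. It fell in diapaused ICM relative to ICM by 1.41 ± 0.20 on the log2 scale (adjusted p = 0.00268), a call that held in all 17 settings. Of the 3 constitutive catalytic genes Psmb5, Psmb6 and Psmb7, 1 fell between diapaused ICM and ICM, 1 rose between epiblast and ICM, and all 3 were lower in diapaused ICM than in epiblast. The rise was that of Psmb7 (1.01 ± 0.31 over ICM, adjusted p = 0.0393), which was lost under 7 of 17 settings, with 0.157 without the first epiblast library. Psmb6 in diapaused ICM over epiblast (-0.95 ± 0.23, adjusted p = 0.0126) lost its call without the first epiblast library (0.0626) or the second (0.0927). Psmb7 averaged 26.3 ± 7.38 in diapaused ICM and 99.7 ± 1.54 in epiblast (-1.92 ± 0.31, adjusted p = 0.00225), which held in all settings. The call for Psmb5 was at the threshold (-1.22 ± 0.41, adjusted p = 0.0477) and was lost under 9 of 17 settings, with an adjusted p of up to 0.250 without the second epiblast library.

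Of the 6 remaining immunoproteasome and activator genes, 5 passed the filter. None of the 5 passed between diapaused ICM and ICM, whereas Psme1 and Psme2 rose in epiblast relative to ICM and were lower in diapaused ICM than in epiblast. Both of these comparisons rest on the same 2 epiblast libraries. Psmb10, the third inducible catalytic gene, was at 0.512, 0.0211 and 0.198 adjusted TPM in diapaused ICM and at 5.17 and 4.12 in epiblast, against 0.146, 0.0314 and 0.197 in ICM. It reached 1 in the epiblast libraries alone and so passed the filter through the group where it is high. Its test is therefore not given, and it could not be fitted once an epiblast library was left out. Psme1 and Psme2 encode the PA28 activator, which opens the proteasome and is induced by interferon gamma. Psme2 averaged 3.29 ± 1.02 in diapaused ICM and 30.6 ± 3.63 in epiblast, against 4.86 ± 1.70 in ICM, and rose in epiblast by 2.46 ± 0.31 over ICM (adjusted p = 0.000656). Mouse Psme2 has a near-identical copy elsewhere in the genome, so its share of reads is uncertain. Psme1 averaged 41.1 ± 16.6 in diapaused ICM and 148 ± 35.9 in epiblast, against 44.7 ± 14.0 in ICM, and rose in epiblast by 1.73 ± 0.39 over ICM (adjusted p = 0.0113, and 0.1 without the first epiblast library). Psme3, which encodes a nuclear activator outside the class I pathway proper, averaged 34.8 ± 7.72 in diapaused ICM and 42.9 ± 2.15 in epiblast, against 53.8 ± 11 in ICM, and passed in no comparison. Epiblast was thus low in Psmb9 and high in Psmb10, Psme1 and Psme2, while Psmb8 was near 0 in every group.

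**Figure D4:**
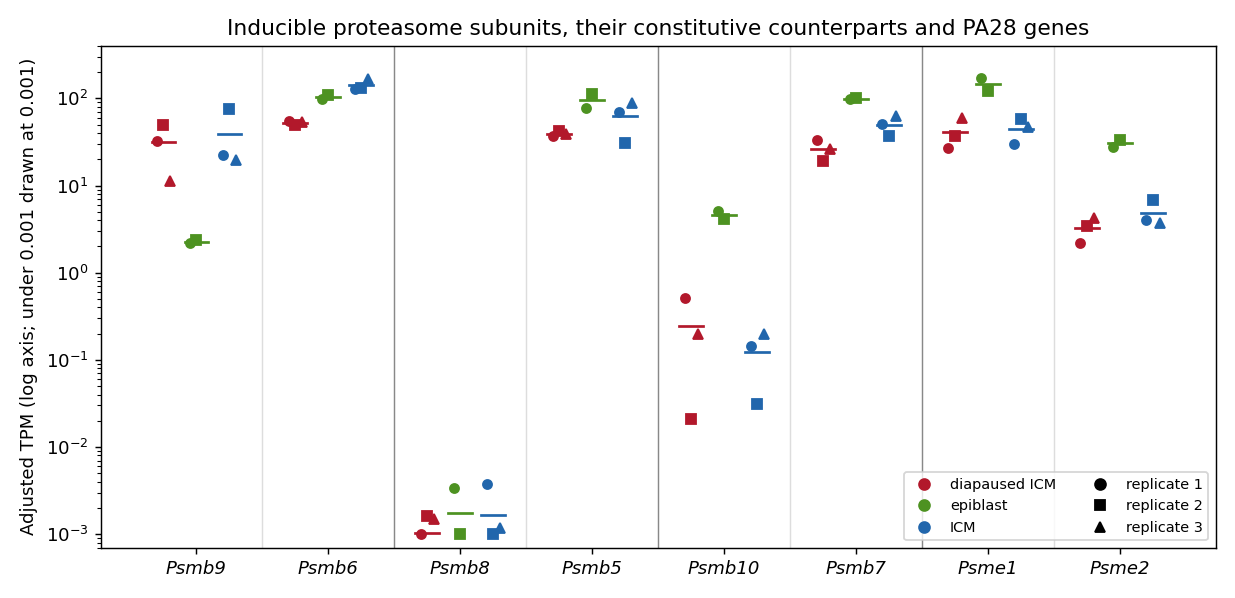
Adjusted TPM (log axis, values under 0.001 drawn at 0.001) of inducible proteasome subunits beside their constitutive counterparts, and of the PA28 genes. Points are libraries and short lines are group means. Psmb9 is lowest in epiblast, where Psmb10, Psme1 and Psme2 are highest, and Psmb8 stays under 0.00375 in all 8 libraries.

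Nlrc5, the coactivator that drives class I transcription in lymphocytes, did not pass the filter. It was at 0.0123, 0.0134 and 0.0144 adjusted TPM in diapaused ICM and at 0.0628 and 0.0859 in epiblast, against 0.0430, 0.119 and 0.0137 in ICM. The third ICM library, at 0.0137 with B2m at 1.60, lay within the range of the diapaused ICM libraries. All these values were far under 1, and a part of Nlrc5 in the level of B2m was not tested. Nlrc5 works with the RFX, CREB and NF-Y proteins on the promoter. Of 12 regulators of class I genes listed, 9 passed the filter, and 1 rose and 1 fell in diapaused ICM relative to ICM. The RFX subunit gene Rfxap was at 2.08, 1.76 and 3.02 in diapaused ICM and at 8.49 and 7.95 in epiblast, against 6.78, 7.26 and 8.99 in ICM. It fell in diapaused ICM relative to ICM by 1.41 ± 0.21 on the log2 scale (adjusted p = 0.00345) and was lower than in epiblast by a like amount (-1.50 ± 0.24, adjusted p = 0.00198), both in all 17 settings. Rfxank, another RFX subunit gene, was at 4.98, 4.17 and 3.59 in diapaused ICM and at 0.834 and 0.547 in epiblast, against 1.65, 1.69 and 1.99 in ICM. It rose in diapaused ICM by 0.91 ± 0.20 over ICM (adjusted p = 0.0193), which was lost under rescaling without abundant genes (0.0738), without the first ICM library (0.0686) and without the first diapaused ICM library (0.0642). Its difference from epiblast, 1.63 ± 0.23, passed in all 16 settings (adjusted p = 0.000981). Rfx5, the third subunit, was at or under 0.817 in all libraries and did not pass the filter.

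Nfkb1 and Rela encode subunits of NF-kB, a form of whose site was searched for above. Binding to the printed matches was not measured. Nfkb1 was at 0.696, 2.75 and 3.14 adjusted TPM in diapaused ICM and at 0.0327 and 0.00273 in epiblast, against 0.154, 0.0186 and 0.522 in ICM. The diapaused ICM libraries were the highest, with a log2 difference of 1.29 ± 0.37 from ICM and 1.55 ± 0.42 from epiblast. Nfkb1 reached 1 in 2 diapaused ICM libraries alone and so passed the filter through the group where it is high. Its tests against ICM and against epiblast are therefore not given. Rela averaged 3.64 ± 1.54 in diapaused ICM and 0.570 ± 0.0775 in epiblast, against 2.29 ± 0.884 in ICM. It did not pass between diapaused ICM and ICM (0.49 ± 0.30, adjusted p = 0.349) and was higher in diapaused ICM than in epiblast (1.51 ± 0.34, adjusted p = 0.00962), a call lost without the first epiblast library (0.0543) or the second (0.0588). In epiblast relative to ICM, 1 of the 9 regulators rose, the CREB gene Creb1 (0.78 ± 0.24, adjusted p = 0.0369), and 2 fell, Rela (-1.03 ± 0.34, adjusted p = 0.0483) and Rfxank (-0.72 ± 0.23, adjusted p = 0.0414). These 3 calls were close to the threshold and were lost under 6 of 17, 8 of 16 and 9 of 16 settings, with an adjusted p of 0.208, 0.181 and 0.214 without the second epiblast library. Nfyb, an NF-Y subunit gene, was lower in diapaused ICM than in epiblast (-1.15 ± 0.27, adjusted p = 0.0117, and 0.106 without the second epiblast library). Irf1, an interferon-induced activator of class I genes, was uneven, at 0.722, 23.5 and 0.409 in diapaused ICM and 1.73 and 1.86 in epiblast, against 5.86, 0.0505 and 0.334 in ICM, and passed in none of the 3 comparisons.

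Of 11 genes for interferon receptors and their JAK-STAT pathway, 9 passed the filter. None of the 9 passed between diapaused ICM and ICM, 1 fell in epiblast relative to ICM, and 1 was higher in diapaused ICM than in epiblast. The gene that fell was Irf9, an interferon regulatory factor gene (-1.19 ± 0.38, adjusted p = 0.0450), which was lost under 9 of 16 settings, with 0.255 without the first epiblast library. The gene that was higher was Ifnar2, which encodes a subunit of the type I interferon receptor. It was at 28.1, 64.0 and 24.8 adjusted TPM in diapaused ICM and at 1.75 and 2.05 in epiblast, against 6.15, 1.92 and 22.9 in ICM. Its difference from epiblast was 3.66 ± 0.75 (adjusted p = 0.00669) and held in all 17 settings, and its difference from ICM was 2.20 ± 0.67 (adjusted p = 0.0643). The partner subunit gene Ifnar1 averaged 3.86 ± 0.780 in diapaused ICM and 2.64 ± 0.12 in epiblast, against 2.67 ± 0.350 in ICM, and passed in no comparison.

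Of 27 interferon-stimulated genes, 15 were under 1 in all 8 libraries and 7 passed the filter. Among the 7, 1 rose and none fell in diapaused ICM relative to ICM, 3 fell in epiblast relative to ICM, and 4 were higher in diapaused ICM than in epiblast. The gene that rose in diapaused ICM was Ifitm1, an interferon-induced membrane protein gene that is also active in germ cells and early embryos, at 50.0, 36.9 and 34.3 adjusted TPM in diapaused ICM and at 6.51 and 2.65 in epiblast, against 5.17, 6.04 and 6.22 in ICM. Its difference was 2.59 ± 0.29 over ICM (adjusted p = 0.000799) and 2.96 ± 0.33 over epiblast (adjusted p = 0.000317), in all 17 settings. Ifitm3, a close relative, averaged 55.4 ± 3.91 in diapaused ICM, against 55.3 ± 12.2 in ICM (0.02 ± 0.22, adjusted p = 0.967). It fell in epiblast to 18.9 ± 1.30, against the ICM mean (-1.48 ± 0.25, adjusted p = 0.0031). Ifitm2 fell in epiblast as well, with a mean of 25.5 ± 0.307 against 88.1 ± 13.4 in ICM (-1.74 ± 0.25, adjusted p = 0.00136). Ddx58, the gene of the RNA sensor RIG-I, made up the third fall (-1.56 ± 0.34, adjusted p = 0.00938, and 0.0944 without the first epiblast library). Bst2, the antiviral tethering protein gene, lay 1.96 ± 0.61 higher in epiblast than in ICM. It reached 1 in both epiblast libraries and in the first diapaused ICM library, and so passed the filter through epiblast. Its test against ICM is not given. The 4 genes higher in diapaused ICM than in epiblast were Ifitm1, Ifitm2 (1.27 ± 0.25, adjusted p = 0.00528), Ifitm3 (1.5 ± 0.25, adjusted p = 0.00242) and Ddx58 (1.25 ± 0.34, adjusted p = 0.0205, and 0.182 without the first epiblast library). The Ifitm genes are similar in sequence, so their split of reads is uncertain. Of the 8 genes of MHC class II, H2-Eb1 passed the filter and was higher in diapaused ICM than in epiblast (1.37 ± 0.34, adjusted p = 0.0156, and 0.0919 without the second epiblast library), and 6 were under 1 in all libraries.

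Set against all genes, the members were not uniformly changed. Of 17698 genes tested, 13.3% passed between diapaused ICM and ICM (7.52% higher and 5.81% lower in diapaused ICM). The 7 members that passed the filter are not counted there, because that contrast chose the set. Between epiblast and ICM 30.1% of genes passed (16.7% higher and 13.3% lower in epiblast), and of the 6 members besides B2m 1 passed, Psmb9, which fell. Between diapaused ICM and epiblast 34.5% passed (16% higher and 18.6% lower in diapaused ICM). There Psmb9 passed as higher and H2-K1 as lower, of the same 6, and Tap1 is not counted because its test is not given. The groups did not overlap for 2, 4 and 5 of the 7 in these 3 comparisons, which share libraries with each other, where 30.7%, 59% and 61.4% of all genes tested did not. B2m, whose level chose the set, is counted in each of the 3, and the 2 were B2m and H2-K1. Tap1, which passed the filter through diapaused ICM, is among the 5. These counts, and the medians of the 7 given next, are therefore descriptions and cannot show whether the members differ from all genes. The median log2 difference of the 7 was -0.27, -0.35 and 0.39, against 0.004, 0.14 and -0.11 over all genes, and without the second ICM library the first of these medians was 0.33, and without the third diapaused ICM library it was 0.32. Rescaling each library without its most abundant genes moved the median of all genes to -0.23, 0.01 and -0.21 and gave 856 higher and 1696 lower genes in diapaused ICM against ICM in place of 1331 and 1029, 1930 and 2594 in epiblast against ICM in place of 2963 and 2361, and 2283 and 3368 in diapaused ICM against epiblast in place of 2830 and 3283. Under that scaling B2m and H2-K1 kept their directions.

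**Figure D5:**
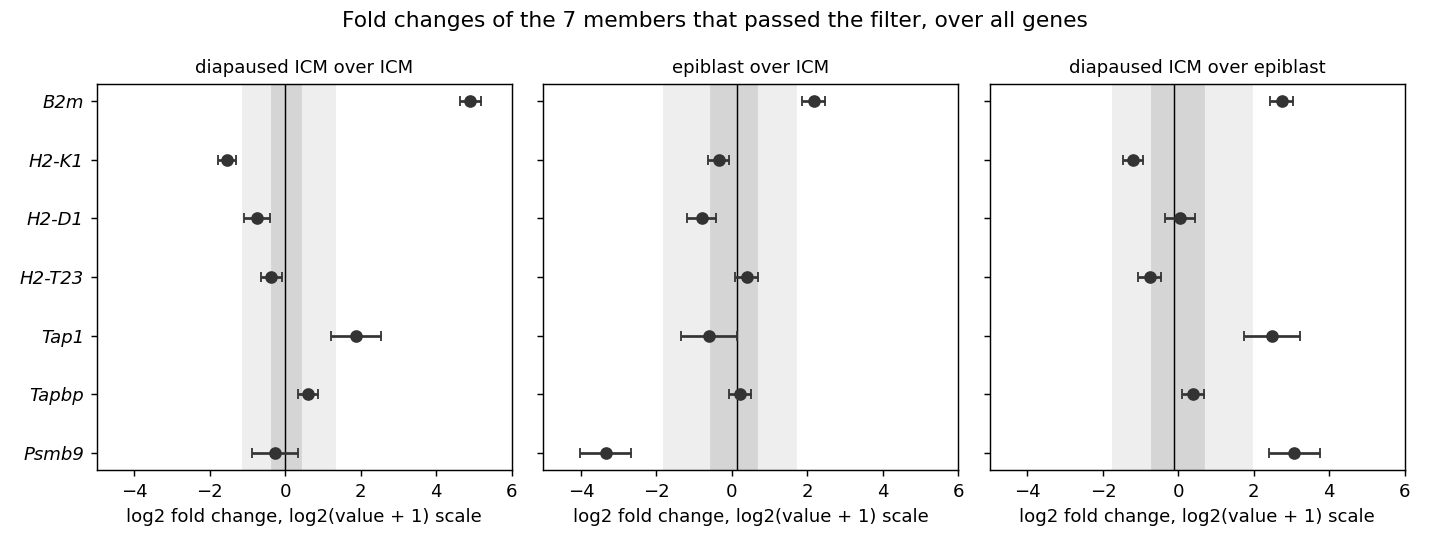
Log2 fold changes, on the log2(value + 1) scale, of the 7 members that passed the filter in the 3 comparisons (points, with standard errors as bars). Grey bands mark the spread over all 17698 genes tested, dark for the middle 50% and light for the middle 90%, and the vertical line is their median. B2m lies at 4.91, 2.17 and 2.74, and H2-K1 at -1.55, -0.35 and -1.20.

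Markers of other cell types moved with some of these groups. Of 12 primitive endoderm markers, 9 rose and Gata6 fell in diapaused ICM relative to ICM, and the summed level of the 12 was 1840 to 2176 adjusted TPM in diapaused ICM and 68.8 to 72.1 in epiblast, against 600.0 to 747 in ICM. The defining markers Gata4, Gata6, Sox17 and Pdgfra reached 41.9 in diapaused ICM, against 32.8 in ICM. Of these Gata4 alone rose (0.91 ± 0.18), and Sox17 (0.31 ± 0.35) and Pdgfra (0.46 ± 0.21) did not pass. The call for Gata6 was lost under 8 of 16 settings, that for Gata4 under 2 of 17 and that for Lamb1 under 7 of 17. In epiblast relative to ICM, 9 of the 12 markers fell and none rose. The summed level of 11 visceral endoderm markers was 625 to 640 in diapaused ICM and 326 to 437 in epiblast, against 38.9 to 63.0 in ICM, and of 9 tested, Apoe, Cubn, Lrp2 and Rhox5 rose and Hnf4a fell in diapaused ICM relative to ICM. The defining markers of that tissue, Afp, Ttr and Amn, were at or under 0.974 in diapaused ICM and reached 39.7 in epiblast, against at most 0.109 in ICM. Of 12 trophectoderm markers, 9 passed the filter and Gata3 alone of these rose in diapaused ICM relative to ICM. Their sum was 54.5 to 187 in diapaused ICM and 66.2 to 73.8 in epiblast, against 41.1 to 60.7 in ICM, and the 187 was the third diapaused ICM library, in which Krt18 was at 121.

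Blood and immune cell markers were looked at because those cells carry much class I. Of 15 in the file, 4 passed the filter, and 2 of these, Laptm5 and Cd68, rose in diapaused ICM relative to ICM. Laptm5, a lysosomal membrane protein gene of blood cells, was at 53.2, 20.8 and 21.5 adjusted TPM in diapaused ICM and at 0.992 and 1.07 in epiblast, against 1.03, 1.12 and 0.743 in ICM (3.93 ± 0.34, adjusted p = 0.000198). Cd68, a lysosomal protein gene abundant in macrophages, averaged 45.2 ± 30.8 in diapaused ICM, against 6.29 ± 2.72 in ICM (2.53 ± 0.46, adjusted p = 0.00784, and 0.0673 with no filter). The list summed to 49.1 to 137 in diapaused ICM and 6.96 to 39.8 in epiblast, against 6.55 to 12.5 in ICM. The defining markers Ptprc, Tyrobp and Csf1r were at or under 0.399 in all 8 libraries. The uterine markers summed to 6.94 to 12.3 in diapaused ICM and 6.48 to 7.85 in epiblast, against 11.3 to 20.9 in ICM, and Pgr, Esr1, Hoxa10 and Hoxa11 were at or under 0.159 throughout. The part of primitive endoderm, visceral endoderm, trophectoderm, uterine, or blood and immune cells in the level of B2m was not tested.

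The genes whose pattern over the 8 libraries was most like that of B2m were Ctsh, Tspan9, Gabarapl1, Nrep and Rnf157. They were ranked by Pearson r of log2(value + 1) among 4792 genes with a mean of at least 10 in some group, and r ran between 0.979 and 0.981. The 8 points fall into 3 groups and share the deposited scaling, so these are descriptions. Ctsh, the gene of the lysosomal protease cathepsin H, averaged 20.8 ± 10.8 in diapaused ICM and 2.85 ± 0.546 in epiblast, against 0.283 ± 0.0856 in ICM. Gabarapl1, an autophagy gene of the LC3 and GABARAP family, averaged 42.6 ± 2.20 in diapaused ICM and 21.5 ± 2.77 in epiblast, against 6.81 ± 0.677 in ICM. Nrep averaged 62.3 ± 7.17 in diapaused ICM and 14.6 ± 1.73 in epiblast, against 6.79 ± 2.27 in ICM. After quantile normalization the same 5 genes held the first 5 places. Of the other 9 members, only H2-K1 and Psmb9 were abundant enough to be ranked, and neither was among them.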

How the data were processed

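RNA sequencing values of 8 pooled libraries were used as deposited. The authors' deposited table holds a TPM-like signal per gene, which they call adjusted TPM. Its library totals are unequal, so it was handled as a normalized signal and not as counts. Per the submitters' processing notes, Bowtie 0.12.5, DESeq (version not listed) and genome build mm9 were used. No source used here gives the quantifier, the annotation, the use of strand or the read depth. All columns of the table belong to the 8 libraries, so 0 were left out.

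From these values, log2(value + 1) was fitted in limma 3.58.1 (R 4.3.3) with a mean for each of the 3 groups and all 8 libraries in 1 fit, with 5 residual and 3.97 prior degrees of freedom. A gene was tested where 2 or more libraries held it at 1 or more (17698 of 38924), two-sided, with Benjamini-Hochberg adjustment over all of them and a threshold of 0.05. The p-values measure the spread between pools. For 204 symbols listed more than once the row of highest mean was used. The procedure was tested on simulated data. Alternatives were other pseudocounts (0.1 and 0.5), no filter or a minimum of 5, quantile normalization, rescaling without 8 abundant genes, no variance trend, only the groups compared, the replicate number as a block, and leaving out each library.

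The members, the 9 other pathway lists and the 7 marker lists were chosen with earlier results of these data known. Named from each pathway list were up to 4 genes of smallest adjusted p past the threshold in a comparison and genes with a mean of at least 50 in a group, and from the likeness ranking the first 5. Marker lists are given by counts, sums and defining markers. Irf1, Nfkb1, Ifnar1, Rfx5, Erap1, H2-Q10, H2-Bl and Krt18 fall outside that rule and were named after their values were seen. Libraries were treated as unpaired in the fit as reported, and whether the replicate numbers pair them is not known. Motifs and shared 36-base words were found with Python 3.11.15 in RefSeq (GRCm38.p6) windows and GENCODE transcripts.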

Additional observations from a re-analysis of the deposited data

How the results depend on the processing

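There were 350 alternative values of the members. Moves beyond the replicate spread were looked for only between diapaused ICM and ICM and for B2m against epiblast, and 5 values moved. All other values were judged by call and sign alone, and of those 10 lost a call and 1 gained one. A shift that kept its call was not counted there, such as that of Tap1 over epiblast from 2.49 to 5.08 with a pseudocount of 0.1. Over all 350, 8 had the opposite sign, none of them past the threshold in the fit as reported. Of the 10 losses, 5 were those of Tap1 between diapaused ICM and epiblast, whose test is not given above. Psmb9 in diapaused ICM over ICM, which was -0.274, was 0.331 without the second ICM library and 0.318 without the third diapaused ICM library. H2-K1 in epiblast over ICM was 0.021 without the second epiblast library and -0.724 without the first. H2-D1 in diapaused ICM over epiblast was -0.048 after rescaling without abundant genes, -0.064 with the replicate block, and between -0.133 (without the third diapaused ICM library) and 0.316 (without the second) when a library was left out. With pseudocounts of 0.1 and 0.5 the B2m difference of diapaused ICM from ICM was 5.62 and 5.26. It ran between 4.67 (without the second diapaused ICM library) and 5.03 (without the third) when a library was left out. The number of genes past the threshold depended on the epiblast pair and on the filter. For diapaused ICM against ICM it was 2360, fell to 1278 with no filter, and ran between 1404 (without the first ICM library) and 2148 when a library was left out. For epiblast against ICM it was 5324, with 1788 without the first epiblast library, 2618 without the second, and up to 5257. For diapaused ICM against epiblast it was 6113, with 2539 without the first epiblast library, 3196 without the second, and up to 6351. When an epiblast library is left out, the remaining one is assumed to vary like the other groups. With the replicate block the 3 counts were 2004, 4475 and 5314. Libraries of the same number deviated together by r of -0.064 to 0.131, and those of different numbers by r of -0.148 to 0.064. With so few libraries per group this cannot settle whether the numbers pair them. The r of Ctsh with B2m was 0.981, and 0.977 after quantile normalization. Depth is unknown, so levels under 1 have no stated error.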

Other observations

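Canx, which encodes the chaperone calnexin that holds newly made heavy chains, was at 114, 88.3 and 1110 adjusted TPM in diapaused ICM and at 752 and 852 in epiblast, against 143, 93.1 and 1338 in ICM. The third library of both blastocyst groups therefore stood near the epiblast libraries, and the other 4 blastocyst libraries lay far under them. Psmb9 and Tap1, whose promoter windows overlap, both had their lowest group mean in epiblast, and within diapaused ICM both were lowest in the third library. By library, however, Tap1 was lowest in the first ICM library. In the first ICM library Psmb9 was at 22.4 with Tap1 at 0.000819, and in the second Psmb9 was at 76.0 with Tap1 at 0.825. Bst2, the antiviral tethering protein gene, was at 4.40, 0.0142 and 0.350 in diapaused ICM and at 2.66 and 3.20 in epiblast, against values of 0.00253 to 0.0284 in ICM.

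These values come from 3, 2 and 3 pools per group. The arrested embryos were older than the ICM embryos and came from hormone-treated mothers, and the ICM pools hold more than 1 cell type. Transcript levels say nothing of class I protein at the cell surface.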
